A study of Mus musculus with 12 samples.

Results

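The 43 genes described here are interferon-stimulated genes, chosen by name and found in the deposited raw count table among 47729 genes. They were followed over 12 libraries of RNA from sorted mesenchymal cells of the uterus of healthy, cycling female Pdgfrb-BAC-eGFP mice. Every library carries that reporter, in which a bacterial artificial chromosome with the Pdgfrb gene region drives green fluorescent protein (GFP), so both groups are reporter-positive cells isolated by enzymatic digestion and flow sorting. The group called Naive (6 libraries) is labelled GFPtotal, the whole GFP-positive population, which holds GFP-high perivascular cells and GFP-low stromal fibroblasts. The group called Stromal (6 libraries) is labelled GFPdim, the GFP-low fibroblasts alone. The study set Naive against Stromal to infer the profile of the GFP-high perivascular cells. No treatment and no age is given, and the series text speaks of 12 mice without tying a library to a mouse, so the p-values below measure the spread between these libraries, which may be technical.

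Interferons are secreted proteins that signal through cell-surface receptors and their associated JAK kinases. Type I and type III interferons activate a complex that contains STAT2 and IRF9 and binds the interferon-stimulated response element (ISRE) of target promoters, while the response to interferon-gamma runs through gamma-activated sites (GAS). The target genes encode sensors of viral nucleic acid, proteins that block translation or degrade RNA, GTPases that act on pathogens inside cells, and feedback regulators. In the female reproductive tract the epithelium is known for constitutive production of interferon epsilon.

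Promoter windows of RefSeq on GRCm38.p6 were found for 31 of the 43 genes. Each window runs from 250 bases before an annotated start to 50 bases after it, and both strands were searched for the ISRE-type motif GAAANNGAAA (TTTCNNTTTC on the other strand) and the GAS-type motif TTCNNNGAA. Matches could overlap each other, also between the motifs, and a gene with several windows was counted once when any window held the motif. The ISRE-type motif was present in the windows of 17 of the 31 genes (54.8%), against 1079 of all 27025 genes with a window (3.99%). The GAS-type motif was present for 8 of the 31 (25.8%), against 9.55% of all genes. A match describes the letters in the window and is not a binding site shown by these data.

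The 250 bases before the start are printed for 5 genes, 5' to 3' on the strand of the gene and with the ISRE-type matches in capitals. Ifit1 and Gbp3 were chosen because they were called higher in Naive with and without the libraries Naive 3, 4 and 5 and hold the motif. Oasl2 was called in the same way, and its window, not printed, held no match to either motif. Ifit3 and Ifit3b were chosen because they are near-identical copies, and Bst2 because it holds the motif and did not share the difference between those libraries and the other Naive libraries that is described below. The windows are chr19:34640639-34640888 (forward strand) for Ifit1, chr19:34583279-34583528 (forward) for Ifit3, chr19:34607707-34607956 (forward) for Ifit3b, chr3:142559794-142560043 (forward) for Gbp3 and chr8:71537473-71537722 (reverse strand) for Bst2.
Ifit1: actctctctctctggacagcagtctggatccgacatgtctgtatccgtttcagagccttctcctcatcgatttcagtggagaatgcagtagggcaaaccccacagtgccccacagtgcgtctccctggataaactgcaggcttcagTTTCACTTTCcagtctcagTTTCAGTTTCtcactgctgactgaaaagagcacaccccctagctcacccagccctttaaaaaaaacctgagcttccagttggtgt
Ifit3: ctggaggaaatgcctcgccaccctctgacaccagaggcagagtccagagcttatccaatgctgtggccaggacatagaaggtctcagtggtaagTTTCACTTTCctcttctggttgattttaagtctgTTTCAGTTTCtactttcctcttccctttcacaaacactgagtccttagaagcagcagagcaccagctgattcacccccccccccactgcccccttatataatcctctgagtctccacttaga
Ifit3b: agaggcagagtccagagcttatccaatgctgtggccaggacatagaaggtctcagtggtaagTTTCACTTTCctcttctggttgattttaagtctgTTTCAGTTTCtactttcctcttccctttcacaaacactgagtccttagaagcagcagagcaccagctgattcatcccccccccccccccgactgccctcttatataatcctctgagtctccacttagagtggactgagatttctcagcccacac
Gbp3: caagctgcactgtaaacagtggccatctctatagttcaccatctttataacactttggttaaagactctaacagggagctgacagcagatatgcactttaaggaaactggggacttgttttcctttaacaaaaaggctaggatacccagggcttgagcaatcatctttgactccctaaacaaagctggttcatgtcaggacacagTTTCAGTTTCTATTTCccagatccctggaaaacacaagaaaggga
Bst2: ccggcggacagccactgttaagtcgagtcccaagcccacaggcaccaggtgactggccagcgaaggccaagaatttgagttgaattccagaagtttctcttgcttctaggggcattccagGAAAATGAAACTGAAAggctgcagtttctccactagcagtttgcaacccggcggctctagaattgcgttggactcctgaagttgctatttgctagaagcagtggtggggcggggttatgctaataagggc

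Each of these windows held 2 matches. In Ifit1 they began 104 and 85 bases before the start, at positions -104 and -85. The matches in Ifit3 began at -156 and -122 and those in Ifit3b at -188 and -154, and these windows shared an unbroken run of 169 identical bases that carried both matches. In Gbp3 (-45 and -39) and Bst2 (-130 and -124) the matches overlapped. Among the genes with a window, the motif was present for 16 of the 27 (59.3%) that were higher in Naive 3, 4 and 5 than in Naive 1, 2 and 6, and for 1 of the 4 that were not, which was Bst2. The GAS-type motif was present for 5 of the 27 (18.5%) and for 3 of the 4.

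Total counts were 12631266 to 14950639 per Naive library and 14339804 to 18425596 per Stromal library. Levels are in CPM, edgeR's unit of counts normalised to library size, here after scaling by trimmed mean of M-values (TMM), and a gene was called where the adjusted p of edgeR's quasi-likelihood test fell below 0.05. Naive 3, 4 and 5 stood apart from every other library on the first principal component, at 102 to 107 against -64.6 to 6.66, and are therefore shown apart from Naive 1, 2 and 6. That grouping comes from the data and not from a label, so it is described and not tested. The count file of Stromal 6 names its alignment N8, while its label says Stromal. Perivascular markers summed to 30.9 CPM in that library, against 7.8 to 22.3 CPM in the other Stromal libraries and at least 979 CPM in every Naive library, and results without it are given.

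The interferon-stimulated genes were higher in Naive than in Stromal cells, and most of that difference lay in Naive 3, 4 and 5. Summed over the 43 genes, the level was 6080.4, 5803 and 5352 CPM in Naive 3, 4 and 5. It was 1426, 1455 and 1932 CPM in Naive 1, 2 and 6, and 644, 931 and 1090.4 CPM (lowest, median, highest) in Stromal. The 3 sets of libraries did not overlap in this sum. Of the 43 genes, 39 passed the filter on low counts, and 28 of these were called higher in Naive, where 4.55% of the 14523 genes tested were. None was called lower by edgeR (0.854% of all genes tested), limma-voom (1.88%) or DESeq2 (2.31% of 19413 genes), and none was lower at an unadjusted p under 0.05. The share of all genes under that unadjusted threshold was not counted, so counts at that threshold, here and below, have no share to compare with. The median log2 fold change of the 39 genes was 1.99, beside 0 over all genes tested. Without Naive 3, 4 and 5 it was 0.77, beside -0.06 over all genes, and 4 genes were called higher (1.56% of 15703 genes) and none lower (0.318%). Those 4 were Ifit1, Oasl2, Gbp3 and Iigp1. That fit set 3 Naive against 6 Stromal libraries and called 245 of all genes higher, against 661 with all libraries. A call lost there, here and below, therefore does not show that a gene was level outside Naive 3, 4 and 5. Without Stromal 6, 24 were called, and without Naive 3 alone, 18. DESeq2 called 37 of the 43 higher (6.90% of the 19413 genes it gave an adjusted p), and limma-voom 22 of 39 (4.93% of 14523 genes).

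**Figure D1:**
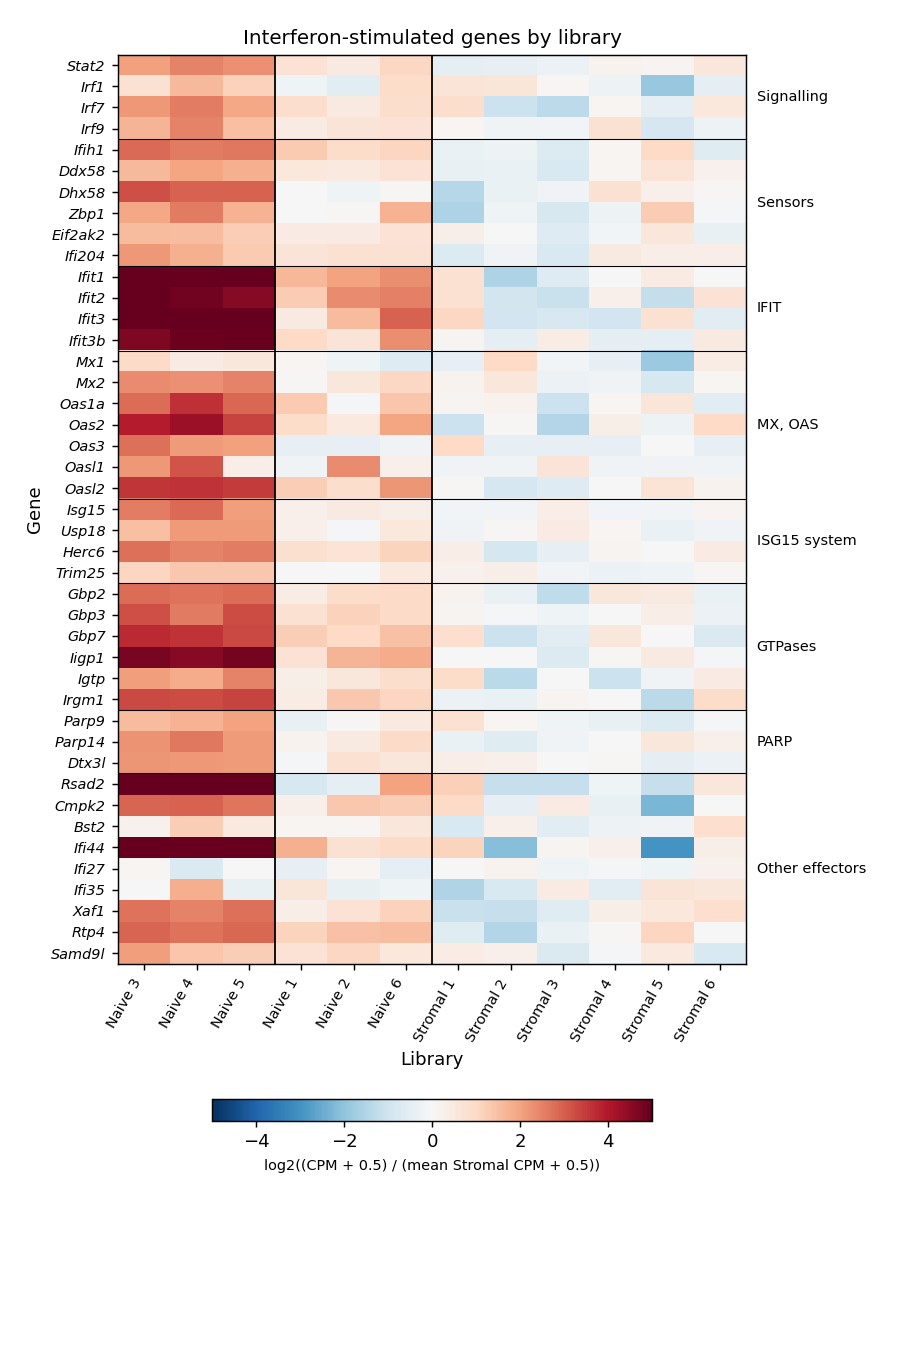
Level of each of the 43 genes (rows, by role) in each library (columns) as log2 of the ratio of CPM + 0.5 to the mean Stromal CPM + 0.5; values past an end of the colour bar take its end colour. Naive 3, 4 and 5 are the 3 reddest columns for 36 genes, Naive 1, 2 and 6 are paler, and the rows of Bst2 and Ifi27 show little difference between the columns.

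In 37 of the 43 genes, all of Naive 3, 4 and 5 lay above all of Naive 1, 2 and 6. Among the 39 tested genes this order held for 34, beside 16.7% of all genes tested. In 34 of the 37 the means differed at least 2-fold as well (10.7% of all genes), and the order held for 39 of the 43 when total library size was the only scaling (30.0%). In 36 genes Naive 3, 4 and 5 lay above all 9 other libraries (8.08%). No gene had the opposite order, which 15.7% of all genes had. The 6 genes without the order were Irf1, Zbp1, Oasl1, Bst2, Ifi27 and Ifi35, and Mx1 had it while overlapping with Stromal. Fewer genes were separate between Naive 1, 2 and 6 and Stromal. All 3 Naive libraries lay above all 6 Stromal libraries for 11 of the 43, 10 of them among the 39 tested (5.13% of all genes). They lay below for none (2.49%), and the other 32 overlapped. For the same 11, all 6 Naive libraries lay above all 6 Stromal libraries (2.86% of all genes, with 0.806% below). They were Ifi204, Ifit1, Ifit2, Ifit3b, Oasl2, Herc6, Gbp3, Gbp7, Iigp1, Rtp4 and Samd9l. Over the 39 tested genes the median ratio of the mean in Naive 3, 4 and 5 to that in Naive 1, 2 and 6 was 3.32, beside 1.04 over all genes. The median ratio of Naive 1, 2 and 6 to Stromal was 1.74, beside 0.978.

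The libraries also differed within these sets. Naive 6 was the highest of Naive 1, 2 and 6 for 29 of the 43 genes and Naive 1 the lowest for 23. Among Naive 3, 4 and 5 no library led throughout, with 16 genes highest in Naive 3, 17 in Naive 4 and 10 in Naive 5. In Stromal, Stromal 5 was the highest for 12 genes and the lowest for 12, and Stromal 1 was the highest for 13.

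Other measures moved with the same libraries. Mitochondrial genes took 32.4% to 40.5% of the counts in Naive 3, 4 and 5, 45.3% to 49.0% in Naive 1, 2 and 6 and 35.1% to 45.7% in Stromal. Fibroblast markers (7 of 7 passed the filter) summed to 20155 to 24268 CPM, 33042 to 35469.7 CPM and 13979 to 21889 CPM in the same order. That sum was carried by collagen genes, and the single markers did not move together. Col1a1, Col6a3 and Lum were lower in all of Naive 3, 4 and 5 than in Naive 1, 2 and 6. Pdgfra was higher in all of them (mean of 648 against 366 CPM), and so, by little, was Dcn (2363 against 2239 CPM). Col3a1 was the only fibroblast marker called with all libraries (0.69, edgeR adjusted p = 0.00782). Without Naive 3, 4 and 5, Col1a1 (1.24, edgeR adjusted p = 0.000768), Col3a1 (0.84, edgeR adjusted p = 0.00094) and Lum (0.59, edgeR adjusted p = 0.0256) were called higher in Naive. Perivascular markers (8 of 8 passed) summed to 1478 to 1783 CPM, 979 to 1313 CPM and 7.8 to 30.9 CPM. Kcnj8, Mcam, Acta2 and Myh11 were higher in all of Naive 3, 4 and 5 than in all 9 other libraries. Their means were 21.1, 11.4, 73.9 and 176 CPM there and 5.68, 5.54, 40.1 and 88.6 CPM in Naive 1, 2 and 6. Rgs5 and Abcc9, which carried the sum, overlapped between Naive 3, 4 and 5 and Naive 1, 2 and 6, as did Notch3 and Cspg4. Immune cell markers were low: of 7 leukocyte markers none passed, and their sum was 0.399 to 3.43 CPM, 1.38 to 4.72 CPM and 0.543 to 6.73 CPM. Of 7 macrophage markers 1 passed, with sums of 6.59 to 17.4 CPM, 3.64 to 4.64 CPM and 3.57 to 15.4 CPM and with C1qa at 0 in every library. Of 6 plasmacytoid dendritic cell markers, genes of a cell type known for interferon secretion, 1 passed, and Siglech was at 0 in every library. None of 7 T and NK cell markers passed, their sum was at most 0.59 CPM, and Nkg7, Gzma and Klrb1c were at 0. Epithelial markers (4 of 8 passed) summed to 8.15 to 13.2 CPM, 1.6 to 5.8 CPM and 7.97 to 13.2 CPM. Most of the difference between the Naive sets lay in Cdh1 (means of 6.15 and 1.25 CPM). Krt7, Krt8 and Krt19 had lower means in Naive 3, 4 and 5 (0.42, 0.324 and 0.964 CPM) than in Naive 1, 2 and 6 (0.562, 0.589 and 1.18 CPM), and the rest had higher ones. Endothelial markers (4 of 7 passed) summed to 40.5 to 59.6 CPM, 33.1 to 51.8 CPM and 39.3 to 60 CPM, with Cldn5 at 0 in every library. Among them Tek, Emcn and Vwf were higher in all of Naive 3, 4 and 5 than in all 9 other libraries (means of 16.3, 19.7 and 2.49 CPM against 6.45, 8.93 and 0.473 CPM in Naive 1, 2 and 6), and Kdr was lower there than in Naive 1, 2 and 6 (5.04 against 17.4 CPM). Cdh5 was the only endothelial marker called by edgeR and was lower in Naive (-1.67 on the log2 scale, edgeR adjusted p = 0.0374). Its means were 4.26, 5.89 and 16.2 CPM in the 3 sets. It was not called without Naive 3, 4 and 5 (-1.48, edgeR adjusted p = 0.273). Genes of the dissociation and immediate early response (8 of 9 passed) summed to 1451 to 1897 CPM, 1412 to 1568 CPM and 746 to 1563 CPM. Of these Atf3 was called higher in Naive (2.6 on the log2 scale, edgeR adjusted p = 0.0425) and was highest in Naive 3, 4 and 5 (means of 39.7, 17.6 and 4.72 CPM in the 3 sets). Egr1 was called as well (0.62, edgeR adjusted p = 0.0267), with all 6 Naive libraries above all 6 Stromal libraries. Without Naive 3, 4 and 5 neither was called, but both stayed higher in Naive (Atf3 1.87, edgeR adjusted p = 0.278, and Egr1 0.42, edgeR adjusted p = 0.255). Egr1 had the highest level of this list, and the list did not move together. Hspa1a (means of 43.7, 78.4 and 62.1 CPM in the 3 sets) and Hspa1b (22.5, 36.3 and 36.4 CPM) were lowest in Naive 3, 4 and 5 and were not called. Fosb was level between the Naive sets (169.9 and 177 CPM). The part of mitochondrial share, of dissociation genes or of fibroblast, perivascular, endothelial, epithelial or macrophage content in the levels of the interferon-stimulated genes was not tested, and in bulk RNA fewer cells of a type and less RNA per cell cannot be told apart.

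Signalling and transcription factors formed the first group: Stat2, Irf1, Irf7 and Irf9. Of these, 2 of 4 were called higher in Naive, with a median log2 fold change of 1.6, and none was called by edgeR without Naive 3, 4 and 5, where 1 had an unadjusted p under 0.05. Stat2 (chr10:128270576-128292849, forward strand), a transcription factor of type I interferon signalling, stood at 168, 228 and 198 CPM in Naive 3, 4 and 5. It stood at 67.7, 55.5 and 82.8 CPM in Naive 1, 2 and 6 and at 29.2, 38.6 and 60.7 CPM (lowest, median, highest) in Stromal. The high Naive libraries were above all others, while Naive 2 fell inside the Stromal range. The log2 fold change of Stat2 was 1.71 (SE 0.34, edgeR adjusted p = 0.00809), and 0.74 without Naive 3, 4 and 5 (edgeR adjusted p = 0.17). Irf7 (chr7:141262706-141266481, reverse strand), the factor that amplifies type I interferon transcription, was scarce. Its level was 5.72, 7.61 and 4.86 CPM in Naive 3, 4 and 5, 2.09, 1.38 and 2.05 CPM in Naive 1, 2 and 6, and 0.0629, 0.756 and 2.09 CPM in Stromal. None of Naive 1, 2 and 6 was clear of the highest Stromal library, and the log2 fold change of 2.14 (SE 0.72) was not called (edgeR adjusted p = 0.1). Irf9, the DNA-binding partner of STAT2, was at 34 to 68.8 CPM in Naive 3, 4 and 5, 15.9 to 20 CPM in Naive 1, 2 and 6 and 6.33 to 20.6 CPM in Stromal. It was called higher with a log2 fold change of 1.48 (SE 0.36, edgeR adjusted p = 0.0233).

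Among the sensors of foreign nucleic acid, 4 of 6 were called higher (median 1.55), and none by edgeR without Naive 3, 4 and 5, where 4 had an unadjusted p under 0.05. Ifih1 (chr2:62595798-62646255, reverse strand) encodes MDA5, a sensor of long double-stranded RNA. It stood at 204, 172 and 175 CPM in Naive 3, 4 and 5, at 71.3, 52.9 and 60.5 CPM in Naive 1, 2 and 6 and at 17.5, 22.7 and 57.1 CPM in Stromal. Only the highest Stromal library, Stromal 5, reached into the Naive range, where it passed Naive 2. Its log2 fold change was 2.12 (SE 0.41, edgeR adjusted p = 0.00693), and 1.11 without Naive 3, 4 and 5 (edgeR adjusted p = 0.094). Dhx58 (chr11:100694884-100704271, reverse strand) encodes LGP2, the relative of MDA5 and RIG-I that regulates them. It was at 15.5, 12.5 and 12.8 CPM in Naive 3, 4 and 5, at 1.24, 0.972 and 1.25 CPM in Naive 1, 2 and 6 and at 0.126, 1.13 and 2.42 CPM in Stromal. Outside Naive 3, 4 and 5 every Naive library lay within the Stromal range. With all libraries the log2 fold change was 2.62 (SE 0.78) and was not called (edgeR adjusted p = 0.0604), and without those libraries it was -0.07 (edgeR adjusted p = 0.985). Ifi204 (chr1:173747293-173766943, reverse strand), a DNA-sensing protein of the p200 family, was at 449, 348 and 250.2 CPM in Naive 3, 4 and 5, 157, 171 and 169 CPM in Naive 1, 2 and 6 and 59.1, 107 and 137 CPM in Stromal. Here every Naive library lay above every Stromal library. Ifi204 was called with a log2 fold change of 1.36 (SE 0.30, edgeR adjusted p = 0.0129), and not without Naive 3, 4 and 5 (0.71, edgeR adjusted p = 0.202). Ddx58, which encodes the RNA sensor RIG-I, was called at 1.32 (SE 0.30, edgeR adjusted p = 0.017), and Eif2ak2, which encodes the translation-blocking kinase PKR, at 1.07 (SE 0.25, edgeR adjusted p = 0.0174).

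The IFIT genes, whose products bind viral RNA and block its translation, had the largest median difference of the groups: all 3 tested members were called higher (median 4.32). Without Naive 3, 4 and 5, 1 of them was called (median 2.39). Ifit3 (chr19:34583531-34588731, forward strand) was at 122, 83.4 and 122 CPM in Naive 3, 4 and 5. It was at 1.16, 3.08 and 8.82 CPM in Naive 1, 2 and 6 and at 0.113, 0.257 and 1.96 CPM in Stromal. The mean in the high Naive libraries was 25.1 times that in Naive 1, 2 and 6, and Naive 1 lay within the Stromal range. The log2 fold change was 6.35 (SE 1.35, edgeR adjusted p = 0.019), the largest of the 39 tested genes, and the call was lost without Naive 3, 4 and 5 (2.61, edgeR adjusted p = 0.237) and under limma-voom (adjusted p = 0.207). Ifit1 (chr19:34640871-34650009, forward strand), whose printed promoter window holds 2 ISRE-type matches, was at 299, 269.8 and 277 CPM in Naive 3, 4 and 5. It was at 26.3, 33.4 and 41.3 CPM in Naive 1, 2 and 6 and at 2.37, 7.89 and 13.7 CPM in Stromal. The sets of libraries formed 3 separate steps, with ratios of means of 8.38 and 4.25. Ifit1 was called with all libraries (4.32, SE 0.78, edgeR adjusted p = 0.00771) and without Naive 3, 4 and 5 (2.07, edgeR adjusted p = 0.0103). Ifit2 followed the same steps, at 53.9 to 72.5 CPM, 5.18 to 12.7 CPM and 0.509 to 3.48 CPM, and was called at 4.32 (SE 0.78, edgeR adjusted p = 0.0055). Ifit3b, with 1055 counts in Naive and 18 in Stromal, did not pass the filter, and its log2 fold change in the fit with no filter was 5.95 (SE 1.29, edgeR adjusted p = 0.0311). Because Ifit3 and Ifit3b are near-identical copies, reads could have been split between them, and their separate values are uncertain.

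**Figure D2:**
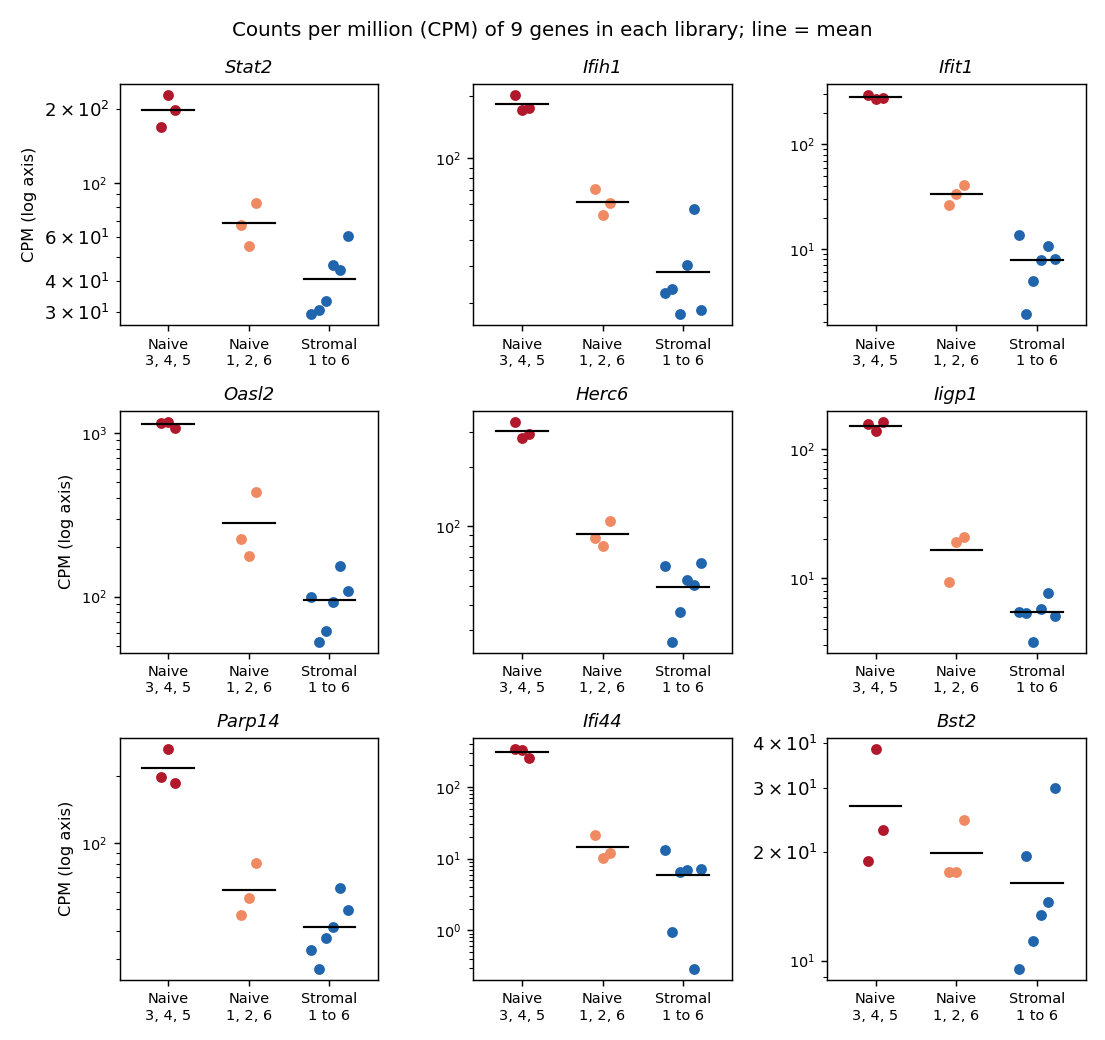
CPM of 9 genes (log axis, a separate scale for each gene) in Naive 3, 4, 5, in Naive 1, 2, 6 and in Stromal 1 to 6; each point is a library and each line the mean of its set. Ifit1, Oasl2 and Iigp1 fall into 3 steps that do not overlap, while the points of Bst2 overlap in all 3 sets.

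Of the Mx and OAS genes, 4 of 5 tested members were called higher (median 2.67), and 1 without Naive 3, 4 and 5 (median 1.12). The Mx proteins are GTPases that trap viral components, and OAS enzymes make the small nucleotides that activate RNase L. Oas2 (chr5:120730333-120749853, reverse strand) was at 226, 283 and 153 CPM in Naive 3, 4 and 5, at 27.8, 20 and 57.9 CPM in Naive 1, 2 and 6 and at 4.9, 13.5 and 29.4 CPM in Stromal. Naive 6 was clear of Stromal, and Naive 1 and 2 were not. The log2 fold change of Oas2 was 3.16 (SE 0.72, edgeR adjusted p = 0.0266), and 1.29 without Naive 3, 4 and 5 (edgeR adjusted p = 0.224). Oasl2 (chr5:114896936-114912234, forward strand), an OAS-like protein, was the most abundant member per length in Naive 3, 4 and 5. It stood at 1151, 1170.3 and 1066 CPM there, at 226, 177 and 438 CPM in Naive 1, 2 and 6 and at 53.1, 96.3 and 154 CPM in Stromal. No sets overlapped, although Naive 6 was well above Naive 1 and 2. It was called with all libraries (2.89, SE 0.51, edgeR adjusted p = 0.00625) and without Naive 3, 4 and 5 (1.54, edgeR adjusted p = 0.0185). Oas1a (2.67, SE 0.56, edgeR adjusted p = 0.00971) and Mx2 (1.80, SE 0.41, edgeR adjusted p = 0.0148) were also called, Oas1a not by limma-voom (adjusted p = 0.0527). The call on Oas2 was lost with no filter on low counts (edgeR adjusted p = 0.0567). Mx1 was not called: it was at 21.4, 14.3 and 16.2 CPM, at 11.4, 9.07 and 6.59 CPM and at 2.62, 8.79 and 22 CPM in the 3 sets, so that the highest library of all was Stromal 2. Its difference on the log2 scale was 0.30 (SE 0.41, edgeR adjusted p = 0.755), and -0.27 without Naive 3, 4 and 5 (edgeR adjusted p = 0.896). Oas3 and Oasl1 did not pass the filter, with 130 and 136 counts in Naive and 15 and 6 in Stromal. Oas3 was at 4, 2.39 and 2.26 CPM in Naive 3, 4 and 5 and at 0, 0 and 0.0891 CPM in Naive 1, 2 and 6.

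The ISG15 system comprises the ubiquitin-like protein ISG15, its protease Usp18, the mouse ligase Herc6 and the ubiquitin ligase Trim25. Of the 3 tested members 2 were called higher (median 1.37), and none by edgeR without Naive 3, 4 and 5, where 1 had an unadjusted p under 0.05. Herc6 (chr6:57581000-57664632, forward strand) was at 336, 279 and 290.1 CPM in Naive 3, 4 and 5, at 87.4, 79.4 and 107 CPM in Naive 1, 2 and 6 and at 26.3, 52.3 and 65.3 CPM in Stromal. All Naive libraries were above all Stromal libraries. On the log2 scale the difference was 1.99 (SE 0.39, edgeR adjusted p = 0.00864), and 0.87 without Naive 3, 4 and 5 (edgeR adjusted p = 0.0925). A further gene, Gm45193, shares 13.7% of the exonic bases of Herc6. Usp18 (chr6:121245906-121270917, forward strand), which removes ISG15 and dampens receptor signalling, was at 37.8, 59 and 58.3 CPM, at 15.8, 12 and 19 CPM and at 10.1, 12.5 and 17.5 CPM in the 3 sets. Naive 1 and 2 lay inside the Stromal range and Naive 6 just above it. The call on Usp18 (1.37, SE 0.36, edgeR adjusted p = 0.0359) was lost without Naive 3, 4 and 5 (0.24, edgeR adjusted p = 0.831) and without any of 9 single libraries (edgeR adjusted p = 0.0523 to 0.0984). Trim25 was not called (0.82, SE 0.24, edgeR adjusted p = 0.06). Isg15 itself had 129 counts in Naive and 5 in Stromal and did not pass the filter. It was at 2.72, 3.44 and 1.86 CPM in Naive 3, 4 and 5, at 0.155, 0.243 and 0.178 CPM in Naive 1, 2 and 6 and at most 0.189 CPM in Stromal. With no filter its log2 fold change was 4.61 (SE 1.27, edgeR adjusted p = 0.0398).

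All 6 of the interferon-inducible GTPases, the guanylate-binding proteins (Gbp2, Gbp3, Gbp7) and the immunity-related GTPases (Iigp1, Igtp, Irgm1), were called higher, with a median log2 fold change of 2.54. These proteins assemble on the vacuoles of intracellular pathogens or regulate that assembly. Without Naive 3, 4 and 5, 2 of them were called (median 0.98). Iigp1 was at 156, 138 and 163 CPM in Naive 3, 4 and 5, at 9.36, 18.9 and 20.8 CPM in Naive 1, 2 and 6 and at 3.21, 5.4 and 7.64 CPM in Stromal. No sets overlapped, and the means formed ratios of 9.32 and 3.03. It was called with all libraries (3.97, SE 0.73, edgeR adjusted p = 0.00771) and without Naive 3, 4 and 5 (1.57, edgeR adjusted p = 0.033). Gbp7 (chr3:142530342-142550149, forward strand) was at 369.7, 338 and 274 CPM, at 64, 55.3 and 75.6 CPM and at 12.6, 22.5 and 49.3 CPM in the 3 sets, again without overlap. Its log2 fold change was 2.85 (SE 0.59, edgeR adjusted p = 0.0147), and 1.24 without Naive 3, 4 and 5 (edgeR adjusted p = 0.088). The gene Gm43802 shares 11.3% of its exonic bases. Gbp3 (chr3:142560026-142573209, forward strand) was at 459.7, 298 and 470.1 CPM in Naive 3, 4 and 5, at 81.8, 108 and 94.1 CPM in Naive 1, 2 and 6 and at 39, 47.5 and 61 CPM in Stromal. The Stromal libraries varied little here (48.5 ± 8.04 CPM, SD, n = 6), and none reached the lowest Naive library. It was called with all libraries (2.38, SE 0.45, edgeR adjusted p = 0.0077) and without Naive 3, 4 and 5 (0.94, edgeR adjusted p = 0.0102). Irgm1 (2.70, SE 0.57, edgeR adjusted p = 0.0119) and Gbp2 (2.14, SE 0.47, edgeR adjusted p = 0.0161) were called as well. Igtp was called at the edge of the threshold (1.69, SE 0.48, edgeR adjusted p = 0.0496) and shares 8.01% of its exonic bases with Irgm2.

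Parp14, Parp9 and Dtx3l encode ADP-ribosyltransferases and the E3 ligase that pairs with PARP9. Of the 3, 2 were called higher (median 1.59), and none by edgeR without Naive 3, 4 and 5, where none had an unadjusted p under 0.05. Parp14 (chr16:35832874-35871544, reverse strand) was at 198, 265 and 187 CPM in Naive 3, 4 and 5, at 47, 56.5 and 80.7 CPM in Naive 1, 2 and 6 and at 27, 39.3 and 62.6 CPM in Stromal. Naive 1 and 2 fell within the Stromal range. The log2 fold change was 1.73 (SE 0.41, edgeR adjusted p = 0.0241), and 0.54 without Naive 3, 4 and 5 (edgeR adjusted p = 0.418). Dtx3l (chr16:35926511-35939151, reverse strand) was at 45.2, 44.1 and 43 CPM, a narrow range, in Naive 3, 4 and 5. It was at 8.82, 16.3 and 14.2 CPM in Naive 1, 2 and 6 and at 6.62, 9.65 and 12 CPM in Stromal, which overlapped. It was called at 1.59 (SE 0.38, edgeR adjusted p = 0.0192), and not without Naive 3, 4 and 5 (0.44, edgeR adjusted p = 0.678). Parp9 lies antisense to Dtx3l and overlaps it over 9.40% of its own exonic bases, which the unstranded counts cannot separate, and it was not called (1.19, SE 0.38, edgeR adjusted p = 0.0851).

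Among the 9 other effectors, 5 were called higher (median 2.05), and none by edgeR without Naive 3, 4 and 5, where 2 had an unadjusted p under 0.05. Rsad2 (chr12:26442753-26456452, reverse strand) encodes viperin, an enzyme that makes a chain-terminating nucleotide. It was at 39, 48.2 and 41.3 CPM in Naive 3, 4 and 5, at 0.155, 0.324 and 4.1 CPM in Naive 1, 2 and 6 and at 0, 0.236 and 2.09 CPM in Stromal. Naive 6 was the only other library above the Stromal range. The log2 fold change of 5.12 (SE 1.52) was not called (edgeR adjusted p = 0.0768), but was without Naive 1 (edgeR adjusted p = 0.0419) or Naive 2 (edgeR adjusted p = 0.0465) and by DESeq2 (adjusted p = 0.0171). Ifi44 (chr3:151730922-151749960, reverse strand) was at 339.6, 329.5 and 252 CPM in Naive 3, 4 and 5, at 21.3, 10.1 and 11.9 CPM in Naive 1, 2 and 6 and at 0.291, 6.72 and 13.1 CPM in Stromal. The mean in the high libraries was 21.2 times that in Naive 1, 2 and 6, which themselves overlapped with Stromal. Ifi44 was called with all libraries (4.78, SE 1.18, edgeR adjusted p = 0.0372), and not without Naive 3, 4 and 5 (1.29, edgeR adjusted p = 0.526) or without any of 9 single libraries (edgeR adjusted p = 0.0509 to 0.0813). Cmpk2, the mitochondrial nucleotide kinase next to Rsad2, was called at 2.44 (SE 0.65, edgeR adjusted p = 0.037). Rtp4 (2.38, SE 0.45, edgeR adjusted p = 0.00464), Xaf1 (2.05, SE 0.50, edgeR adjusted p = 0.0286) and Samd9l (1.27, SE 0.28, edgeR adjusted p = 0.0125) were the remaining called genes.

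**Figure D3:**
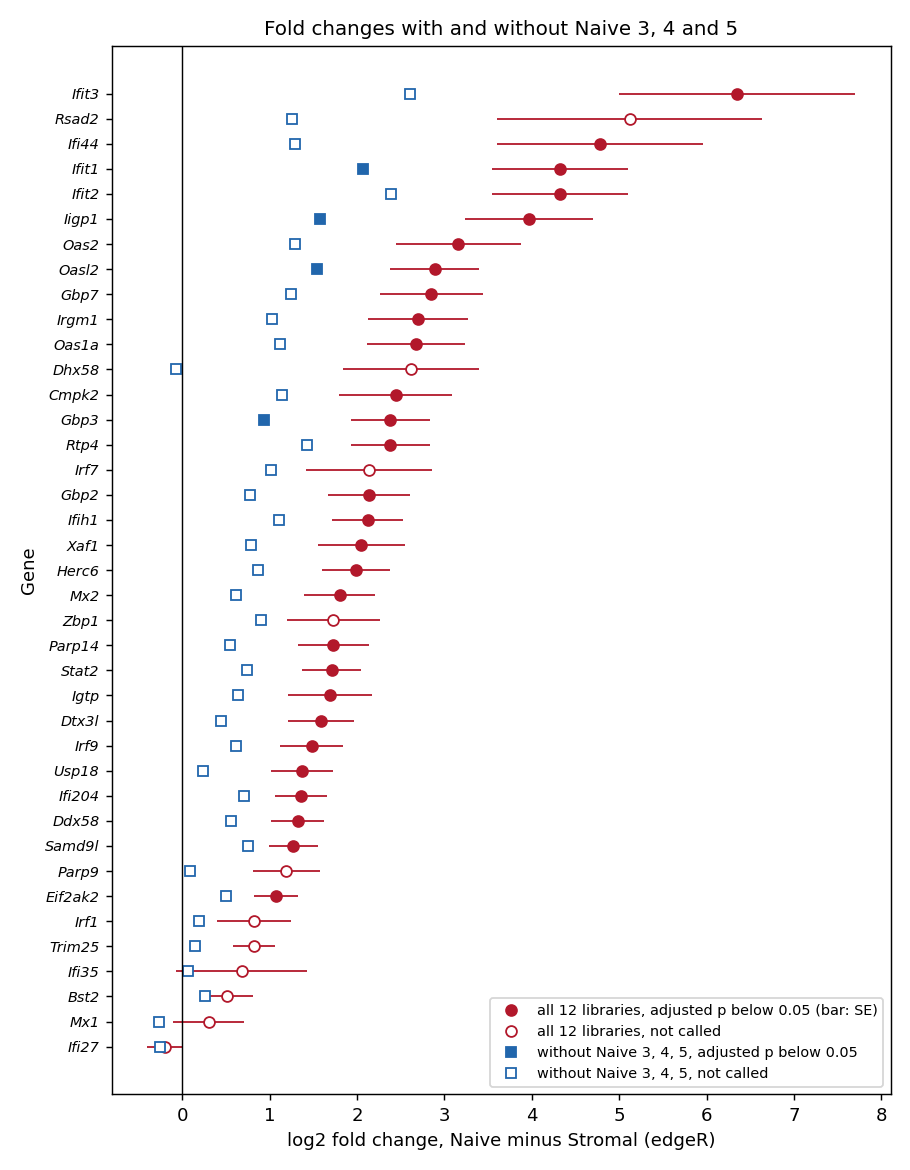
Log2 fold change, Naive minus Stromal, of the 39 tested genes (rows) with all 12 libraries (circles, bars are the SE) and without Naive 3, 4 and 5 (squares); filled symbols have an edgeR adjusted p below 0.05. There are 28 filled circles and 4 filled squares (Ifit1, Iigp1, Oasl2 and Gbp3), and every square but those of Dhx58, Mx1 and Ifi27 lies at or right of 0.

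The 6 genes that did not share the order within Naive fell into different patterns. In Irf1, an early interferon-gamma response factor, Naive 6 lay above Naive 3: the levels were 22.4, 40.6 and 29.5 CPM in Naive 3, 4 and 5 and 11.1, 8.91 and 24.9 CPM in Naive 1, 2 and 6. Stromal ranged from 3.13 to 20.6 CPM with a median of 12.3 CPM, and the log2 fold change of 0.82 (SE 0.42) was not called (edgeR adjusted p = 0.298). Zbp1, a sensor of Z-form nucleic acid, had the same exception. It stood at 19.7, 32 and 17.2 CPM in Naive 3, 4 and 5, at 4.95, 5.1 and 17.4 CPM in Naive 1, 2 and 6 and at 1.33, 4.01 and 12.5 CPM in Stromal. Naive 6 was just above Naive 5, and Zbp1 was not called (1.73, SE 0.53, edgeR adjusted p = 0.0706), but was under DESeq2 (adjusted p = 0.0202). Oasl1 was scarce, at 2, 4.48 and 0.2 CPM in Naive 3, 4 and 5 and at 0, 2.43 and 0.178 CPM in Naive 1, 2 and 6, so that Naive 2 lay above Naive 3 and 5.

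Bst2, Ifi27 and Ifi35 showed little difference between the sets. Bst2 (chr8:71534264-71537437, reverse strand), which encodes tetherin and whose printed window holds the ISRE-type motif, was at 18.8, 38.4 and 23 CPM in Naive 3, 4 and 5. It was at 17.6, 17.6 and 24.4 CPM in Naive 1, 2 and 6 and at 9.49, 13.9 and 29.9 CPM in Stromal. The sets overlapped, and the log2 fold change was 0.51 (SE 0.30, edgeR adjusted p = 0.364). Ifi27 was at 27.4, 15.6 and 25.6 CPM in Naive 3, 4 and 5, at 19.1, 27.9 and 18.7 CPM in Naive 1, 2 and 6 and at 22, 25.3 and 30 CPM in Stromal. It was the 1 tested gene with a negative log2 fold change (-0.20, SE 0.20, edgeR adjusted p = 0.643), and its highest library was Stromal 6. Ifi35 was at 1.14, 5.22 and 0.732 CPM, at 1.93, 0.729 and 0.891 CPM and at 0.0632, 1.11 and 2.04 CPM in the 3 sets, with only Naive 4 outside the range of the rest. Its difference on the log2 scale was 0.68 (SE 0.75, edgeR adjusted p = 0.679), and -0.03 without Naive 4. The antisense gene Gm11626 covers 16.8% of its exonic bases.

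Levels of different genes were compared per length, as CPM divided by the exonic length in kilobases (RPKM). In Stromal cells Ifi204 was highest (28.1 ± 9.74 RPKM, SD, n = 6), followed by Bst2 (21.4 ± 9.76 RPKM) and Ifi27 (17.6 ± 2.35 RPKM). Oasl2 (14.9 ± 5.72 RPKM), Gbp3 (14.9 ± 2.46 RPKM), Samd9l (14.4 ± 4.93 RPKM) and Eif2ak2 (13.9 ± 4.22 RPKM) came next, and along these 7 genes each differed from the next by less than the larger SD of the pair. The least abundant were Isg15, Oasl1 and Oas3, at 0.0655, 0.0241 and 0.0228 RPKM. In Naive 3, 4 and 5 the order was another one: Oasl2 (177 RPKM), Gbp3 (125 RPKM), Ifit1 (106 RPKM), Ifi204 (97.9 RPKM) and Ifit3 (62.5 RPKM) led. Ifit1 held place 21 in Stromal and place 3 in Naive 3, 4 and 5, Ifit3 went from place 36 to place 5, and Ifi27 from place 3 to place 23. In Naive 1, 2 and 6 the leading genes were Ifi204 (46.5 RPKM), Oasl2 (43.9 RPKM) and Gbp3 (29 RPKM).

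**Figure D4:**
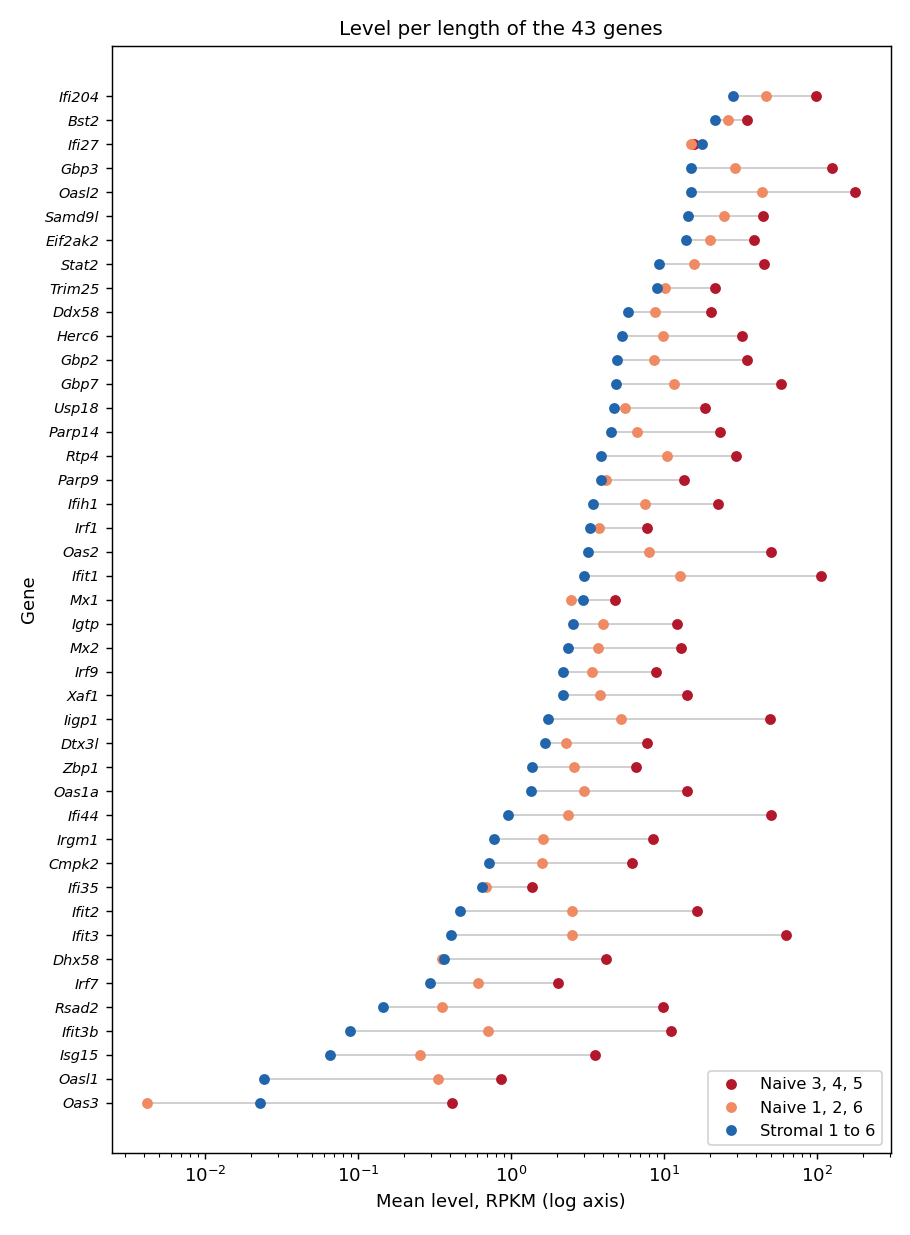
Mean level per length (RPKM, log axis) of the 43 genes (rows, ordered by the Stromal mean) in Naive 3, 4, 5, in Naive 1, 2, 6 and in Stromal 1 to 6, with no error shown. The distance between the outer points is widest among scarce Stromal genes such as Ifit3 and Rsad2 and close to none for Ifi27.

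The genes that make, receive and pass on the interferon signal were followed as a separate list of 46, of which 31 passed the filter. With edgeR 2 of the 31 were called higher, beside 4.55% of all genes tested. None was called lower by edgeR, limma-voom or DESeq2, while 9 had an unadjusted p under 0.05 in either direction. No share of all genes at that unadjusted threshold was counted beside it. The median log2 fold change was 0.25. Without Naive 3, 4 and 5 edgeR called none, and 1 had an unadjusted p under 0.05. Of 11 interferon ligand genes only Ifnk, which encodes interferon kappa, passed, and Ifnb1, Ifna4, Ifna5, Ifnz, Ifnl2 and Ifnl3 had no count in any library. Ifnk was lower in Naive 3, 4 and 5 (2.57, 4.85 and 2.13 CPM) than in Naive 1, 2 and 6 (11.3, 9.15 and 5.97 CPM), the reverse of the interferon-stimulated genes, and ranged from 1.64 to 15.9 CPM in Stromal. Ifne had 7 counts in Naive, all in Naive 5, and 3 in Stromal, all in Stromal 5. Ifng had 6 counts in Naive, 4 of them in Naive 5, and 5 in Stromal. Ifna1 had 3 counts, all in Naive 4, and Ifna2 had 1, in Naive 6.

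All 9 receptor and kinase genes passed the filter, and none was called by edgeR or limma-voom, while 2 had an unadjusted p under 0.05 and DESeq2 called 1. Those 2 were Il10rb (1.99, SE 0.62, edgeR adjusted p = 0.0717), which DESeq2 called (adjusted p = 0.0162), and Ifnlr1 (1.59, SE 0.61, edgeR adjusted p = 0.15). In Naive 3, 4 and 5, Naive 1, 2 and 6 and Stromal, means were 8.07, 3.48 and 1.44 CPM for Il10rb and 10.7, 2.83 and 2.25 CPM for Ifnlr1. Without Naive 3, 4 and 5 the log2 fold changes were 1.24 and 0.32. Jak1, the kinase shared by the interferon receptors, was the most abundant of them per length (30.6 RPKM in Naive and 25.7 RPKM in Stromal), with a log2 fold change of 0.25 (SE 0.16, edgeR adjusted p = 0.427). Jak2 was at 13 and 9.88 RPKM, the type I receptor subunits Ifnar2 at 11 and 9.6 RPKM and Ifnar1 at 5.03 and 4.36 RPKM, and the interferon-gamma receptor subunit Ifngr1 at 6.49 and 6.2 RPKM. Ifngr2, Tyk2, Il10rb and Ifnlr1 were at 0.379 to 1.67 RPKM. In 6 of the 9, Naive 3, 4 and 5 lay above Naive 1, 2 and 6, beside 16.7% of all genes tested. The same order held in 11 of the 31 genes of the whole list that passed the filter. It held in 0 of its 5 tested transcription factors and not in its 1 tested ligand.

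The called genes were Tlr3 and Ikbke. Tlr3, the endosomal sensor of double-stranded RNA, was at 56.5, 56 and 47.2 CPM, at 25, 32.5 and 41.9 CPM and at 11.3, 13 and 30.9 CPM in the 3 sets. It was called at 1.47 (SE 0.28, edgeR adjusted p = 0.00498), and not without Naive 3, 4 and 5 (1.06, edgeR adjusted p = 0.142). Ikbke, a kinase that activates interferon regulatory factors, was at 13, 20.1 and 17 CPM, at 5.96, 3.81 and 3.3 CPM and at 3.04, 3.24 and 3.72 CPM. It was called at 1.67 (SE 0.44, edgeR adjusted p = 0.0341), and not without Naive 3, 4 and 5 (0.37, edgeR adjusted p = 0.837), by limma-voom (adjusted p = 0.0962) or when scaled by total library size alone (edgeR adjusted p = 0.0552). The negative regulators of this list, which does not hold Usp18, gave no call among 6 tested by edgeR and limma-voom and 7 tested by DESeq2. With edgeR 3 had an unadjusted p under 0.05: Adar (1.14) and Irf2bp2 (0.66) were higher in Naive and Ptpn11 (-0.41) was lower.

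A list of 46 further interferon-stimulated genes outside the 43 was counted in the same way. Of 35 that passed the filter, 19 were called higher by edgeR (4.55% of all genes tested), with a median log2 fold change of 1.99. Limma-voom called 17 of 35 (4.93%) and DESeq2 26 of the 45 it tested (6.90% of 19413 genes). None was called lower by any of these tools (0.854%, 1.88% and 2.31% of the genes each tested). With edgeR 33 of the 35 had a positive log2 fold change, and Isg20 (-0.21) and Tdrd7 (-0.08) a negative one. In 37 of the 46, Naive 3, 4 and 5 lay above Naive 1, 2 and 6. Among the 35 this held for 31, beside 16.7% of all genes tested. Without Naive 3, 4 and 5, 1 of 36 was called (1.56% of all genes): Ifi203, a p200-family relative of Ifi204. Ifi203 was at 2344, 1689.5 and 1017 CPM in Naive 3, 4 and 5, at 248, 216 and 338 CPM in Naive 1, 2 and 6 and at 48.9, 80.9 and 128 CPM in Stromal, in steps that did not overlap. Its log2 fold change was 3.56 (SE 0.65, edgeR adjusted p = 0.00854), and 1.68 without those libraries (edgeR adjusted p = 0.0017). Sp110 (3.40), Gbp9 (3.30), Gbp6 (2.86), Phf11d (2.75) and Oas1b (2.66) had the next largest log2 fold changes of the called genes, with edgeR adjusted p of 0.0425, 0.0367, 0.0206, 0.0125 and 0.0102. The ISRE-type motif was present for 22 of 41 genes of this list with a promoter window (53.7%), against 3.99% of all genes with a window.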

How the data were processed

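Per the file headers, the authors made the deposited raw counts with featureCounts 1.6.4, counting fragments over exons of Ensembl release 84 on GRCm38 with a mapping quality of at least 10 and without strand. The submitters' processing notes name cutadapt and SAMtools, and the aligner was not given in the sources used here. For 12 of 12 libraries the series table and the single file were identical. Symbols for 47224 of 47729 genes came from GENCODE M21, coordinates are those of the files, and promoter windows are from RefSeq.

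Genes were filtered with filterByExpr, scaled by TMM and tested in edgeR 4.0.16 (R 4.3.3) with robust quasi-likelihood F tests, Naive minus Stromal over 12 libraries, two-sided, with no covariate and Benjamini-Hochberg adjustment over 14523 genes. Standard errors (SE) are the fold change over the root of F, and CPM use TMM-scaled library sizes. Scripts were tested on simulated counts. Alternatives were other scalings, no filter, DESeq2 1.42.0, limma-voom (limma 3.58.1), the replicate number as a block, each library left out, and Naive 3, 4 and 5 left out.

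The genes, the lists and the last alternative were chosen with earlier results of these data known, so their direction here is not independent support. Full values were given for the 2 genes of each role group with the largest log2 fold change and the one with the highest level per length, and for genes without the order within Naive. From the other lists, up to 6 called genes with the largest change were named, and receptors and kinases by level. Libraries of 1 group differed by more than sampling noise (chi-square per degree of freedom at least 20.9). Of the 43 genes, 14 share exonic bases with another gene, 3 of them over 10% or more. Members of the Ifit, Gbp, Oas, p200 and immunity-related GTPase families are paralogs, and their values are uncertain where a read fits more than 1 copy. 1 gene of the signalling list is not reported here.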

Additional observations from a re-analysis of the deposited data

Results flagged for a closer look

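In 6 of 86 groups of 6 libraries (each gene in Naive and in Stromal), 1 library lay far from the others by Dixon's criterion, which chance alone reaches in about 1 in 20 groups. Stromal 5 was high for the RNA sensor gene Ifih1 (57.1 CPM, the others 17.5 to 30.5 CPM) and for the nucleic acid sensor gene Zbp1 (12.5 CPM, the others 1.33 to 4.62 CPM). Stromal 1 was high for Oas3 (0.822 CPM, the others at most 0.146 CPM) and Stromal 3 for Oasl1 (0.377 CPM, the others at 0), both at very low counts. Naive 4 was high for Bst2 (38.4 CPM, the others 17.6 to 24.4 CPM) and Ifi35 (5.22 CPM, the others 0.729 to 1.93 CPM). Bst2 and Ifi35 are among the genes in which Naive 3, 4 and 5 were not all above Naive 1, 2 and 6.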

How the results depend on the processing

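No gene of the 43 was called lower under any of the 20 alternatives, and 35 of the 39 tested had a positive log2 fold change in all of them. Ifit1, Oasl2 and Gbp3 were called in all. Without Naive 3, 4 and 5, an alternative chosen with the data known, 4 of the 43 were called, with a median log2 fold change of 0.77, 1 of the further interferon-stimulated genes, 0 of the signalling genes, and 245 genes higher and 50 lower of all. There Dhx58 (-0.07) and Mx1 (-0.27) changed sign, as did Ifi35 when libraries were left out singly (-0.03 without Naive 4, up to 0.93 without Stromal 5). The cause was not tested. Leaving out 1 library at a time gave 18 (without Naive 3) to 34 of the 43 called, a median of 1.73 to 2.18, 9 to 23 of the further genes and 1 to 4 of the signalling genes. It gave 406 to 791 genes higher and 61 to 179 lower, and 18 of the 28 called members were called whichever library was left out. The other 10 lost the call without 1 library or more (edgeR adjusted p = 0.0504 to 0.13): Eif2ak2 without Naive 3, Irf9 without Naive 3 or 4 or Stromal 2, 3 or 6, Parp14 without Naive 3 or 5 or Stromal 1, 2, 3 or 4, Dtx3l without Naive 3, 4 or 5, Oas2 without Naive 3 or 5 or Stromal 1 to 5, Xaf1 without Naive 3, 4 or 5 or Stromal 1 to 4, Cmpk2 without Naive 3, 4 or 5 or Stromal 2, 3, 4 or 6, Igtp without Naive 3, 4 or 5 or Stromal 2 to 6, and Usp18 and Ifi44 without Naive 3, 4 or 5 or any Stromal library. Limma-voom ended the calls on Ifit3, Oas1a, Usp18, Dtx3l, Cmpk2 and Ifi44 (adjusted p = 0.0527 to 0.207), and the fit with no filter those on Oas2, Parp14, Ifi44 and Xaf1 (edgeR adjusted p = 0.0567 to 0.0758). Scaling by total library size ended those on Usp18, Igtp and Cmpk2 (edgeR adjusted p = 0.0571 to 0.0778), and the size factors of DESeq2 or TMM on nuclear genes that on Igtp (edgeR adjusted p = 0.0535 and 0.0549). The count of the further genes fell by over 1.5 times without Naive 3 (10), Naive 4 (9), Naive 5 (10), Stromal 2 (9), Stromal 3 (12), Stromal 4 (10) or Stromal 6 (12), and that of the signalling genes (2 with all libraries) fell to 1 without Naive 3, 4 or 5 or Stromal 2, 3, 4, 5 or 6 and rose to 4 without Naive 2. DESeq2 called 1339 genes higher and 448 lower and 4 of the signalling genes, while limma-voom and total library size scaling each called 1. Genes lower in Naive numbered 257 when scaled by total library size alone and 273 with limma-voom.

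No clear pairing by replicate number was seen: same-numbered libraries correlated at -0.139 to 0.0892, and 4 of 12 correlated best with their own number. Those were the libraries numbered 2 and 6. The correlation used deviations from each group mean, which carry the split within Naive, so it cannot exclude a pairing. With the replicate block 16 of the 43 and 1 of the signalling genes were called, beside 492 genes higher and 90 lower.

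The number of libraries and the low counts of Isg15, Oas3, Oasl1 and Irf7 limit the precision of their values. GFPtotal also contains GFP-low cells, in a share not given in the sources used here.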
